A study of Mus musculus with 18 samples.

Results

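Scavenger receptors are surface, lysosomal or secreted proteins of phagocytes that bind modified lipoproteins, apoptotic cells, myelin lipids, haemoglobin complexes and microbial ligands. The 9 mouse genes described here were taken by symbol from the 53465 genes of the count table. Msr1, Marco and Colec12 belong to class A, with collagen-like stalks. Cd36, Scarb1 and Scarb2 belong to class B, whose proteins span the membrane at both ends of the chain. Olr1 encodes the lectin-like receptor of oxidised low-density lipoprotein, and Cd163 and Cd5l belong to the scavenger receptor cysteine-rich family. In GRCm38 with GENCODE M21, Marco lies at chr1:120474538-120505024, Cd5l at chr3:87357881-87371073, Cd36 at chr5:17781690-17888801, Scarb2 at chr5:92441314-92506833 and Scarb1 at chr5:125277087-125341094. Cd163 lies at chr6:124304656-124330527, Olr1 at chr6:129485244-129507165, Msr1 at chr8:39581685-39642673 and Colec12 on chromosome 18. All 9 genes passed the filter on low counts in every comparison. In an injured spinal cord, microglia, the resident phagocytes, and macrophages derived from blood monocytes both clear myelin and blood debris. Interleukin-4 (IL-4) and interleukin-13 (IL-13) share a receptor chain and the transcription factor STAT6, and both drive macrophages towards an alternatively activated state.

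RNA-seq was performed on 18 low-input libraries from 9 adult female C57BL/6J mice, aged 8 to 10 weeks at injury, with a contusion of the thoracic spinal cord. At 48 h after injury the mice received 1 injection into the cord of PBS, or of 100 ng of recombinant IL-13 (rIL-13) or recombinant IL-4 (rIL-4), with 3 mice per treatment. Cells were sorted 24 h later from each mouse into microglia (CD45low CD11b+ F4/80+) and macrophages (CD45high CD11b+ F4/80+), which gave 6 groups of 3 libraries. All 9 mice were injured and injected, so no group shows the uninjured cord, and the sort gate rather than a lineage tracer separates the cell types. Mice are called by the numbers of their labels, 1 to 3 for PBS, 5 to 7 for rIL-13 and 8 to 10 for rIL-4.

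Libraries held 35961305 to 45849829 counts. In microglia the genes with a count numbered 17620 to 18371 with PBS, 16132 to 16832 with rIL-13 and 15193 to 15626 with rIL-4. They numbered 16867 to 18174 in the macrophage libraries. Levels are given as CPM, the counts of a gene scaled to a common library size by the trimmed mean of M-values (TMM), and the error is the SD of 3 mice. A gene was called at a Benjamini-Hochberg adjusted p under 0.05 in edgeR's quasi-likelihood test over all genes, and log2 fold changes carry their standard error (SE). Markers of microglia were higher in the microglia libraries (10 of 10 genes called with PBS), and 9 of 10 monocyte and macrophage markers were lower there. The microglia libraries also held RNA of other cells: 10 fibroblast and pericyte markers summed to 232 to 8174 CPM, against 0.307 to 9.87 CPM in macrophages, and 10 endothelial markers to 1134 to 3871 CPM, against 52.7 to 439 CPM. A lower level in such sorted bulk samples can mean fewer cells of a type or less RNA per cell, and the counts cannot separate these. Of the sort gate genes Ptprc, Itgam and Adgre1, the first pair fell with rIL-4 in macrophages, at -0.61 ± 0.14 and -0.71 ± 0.16 on the log2 scale. In microglia with rIL-4 Itgam alone of them was called, at -1.29 ± 0.27.

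The promoter sequences of the genes with the clearest responses are shown so that a rise and a fall can be set beside the DNA in front of each start. Each window holds the 250 bases before the RefSeq start (GRCm38.p6), 5′ to 3′ on the strand of the gene, for Cd163 and Olr1, which rose with both cytokines in macrophages, and for Cd5l, which fell. Capitals mark matches, on either strand, to GAGGAA, the core bound by the myeloid factor PU.1.
Cd163, chr6:124304401-124304650, plus strand: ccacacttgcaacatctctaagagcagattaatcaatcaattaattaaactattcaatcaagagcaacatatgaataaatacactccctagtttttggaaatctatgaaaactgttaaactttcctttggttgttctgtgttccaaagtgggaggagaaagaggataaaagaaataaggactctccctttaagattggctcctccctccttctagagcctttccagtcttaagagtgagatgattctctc
Olr1, chr6:129507166-129507415, minus strand: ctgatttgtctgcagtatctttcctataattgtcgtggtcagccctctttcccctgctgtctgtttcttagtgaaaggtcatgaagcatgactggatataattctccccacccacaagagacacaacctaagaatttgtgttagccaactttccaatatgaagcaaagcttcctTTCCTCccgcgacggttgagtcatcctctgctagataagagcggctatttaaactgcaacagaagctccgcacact
Cd5l, chr3:87357631-87357880, plus strand: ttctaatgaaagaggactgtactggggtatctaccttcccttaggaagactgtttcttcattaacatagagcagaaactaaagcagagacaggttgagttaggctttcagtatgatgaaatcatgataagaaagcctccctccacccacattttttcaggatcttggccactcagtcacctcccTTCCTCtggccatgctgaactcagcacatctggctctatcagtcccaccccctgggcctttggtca

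GAGGAA matched on the complementary strand in the Cd5l window, 66 bases before the start, and in the Olr1 window, 76 bases before the start. The Cd163 window did not hold these letters. Among 32851 mouse promoter windows of the same length, 23.25% held a match. Of the 9 genes, 6 were matched in the RefSeq table by symbol, and of the other three matched genes Marco held 1 match to GAGGAA, 146 bases before its start, and Cd36 and Scarb2 held none. Such matches describe letters only.

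Set against gene length, Cd36 and Msr1 were the most abundant of the 9 transcripts in macrophages of PBS mice, with 119 ± 18.5 and 85.4 ± 10.9 CPM per kilobase of exon, followed by Scarb2 with 44.4 ± 3.43. Cd5l, Scarb1 and Olr1 followed with 16.9 ± 3.73, 9.24 ± 0.798 and 8.29 ± 1.21 CPM per kilobase, the last pair within their spread. Colec12, Cd163 and Marco closed the order, at 1.64 ± 0.213, 1.07 ± 0.405 and 0.642 ± 0.286 CPM per kilobase. In PBS microglia Msr1 led with 37.5 ± 10.1 CPM per kilobase, then Scarb2 with 24.1 ± 1.07, Cd5l with 22.6 ± 8.68, Cd36 with 16.8 ± 4.81 and Scarb1 with 12.9 ± 2.02, and each of these differed from the next by less than the larger SD of the pair, except Msr1 from Scarb2. Cd163 was the lowest there, at 0.800 ± 0.546 CPM per kilobase, within the spread of Marco at 1.06 ± 0.372.

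The make-up of the repertoire shifted with the cytokines. Cd163 was 0.376% ± 0.154 of the summed CPM per kilobase of the 9 genes in PBS macrophages, 18.2% ± 11.8 with rIL-13 and 21.5% ± 11.8 with rIL-4. In microglia its share was 0.605% ± 0.359, 11.6% ± 6.64 and 14.6% ± 7.50 in the same order. Msr1 made up 29.9% ± 4.64 of the sum in PBS macrophages, 14.3% ± 1.83 with rIL-13 and 7.97% ± 0.723 with rIL-4, with no overlap between the 3 groups. By its mean CPM per kilobase Cd36 stood first of the 9 in all macrophage groups and in both cytokine groups of microglia. With rIL-13 in microglia its 27.1 ± 10.7 CPM per kilobase was within the spread of Msr1 at 22.1 ± 4.14, and Msr1 was the higher of the pair in mouse 6. The sum itself was 287 ± 8.56, 349.6 ± 32.3 and 374 ± 27.2 CPM per kilobase in macrophages and 127 ± 19.6, 115 ± 5.89 and 141 ± 30.7 in microglia, in the order PBS, rIL-13 and rIL-4.

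**Figure D1:**
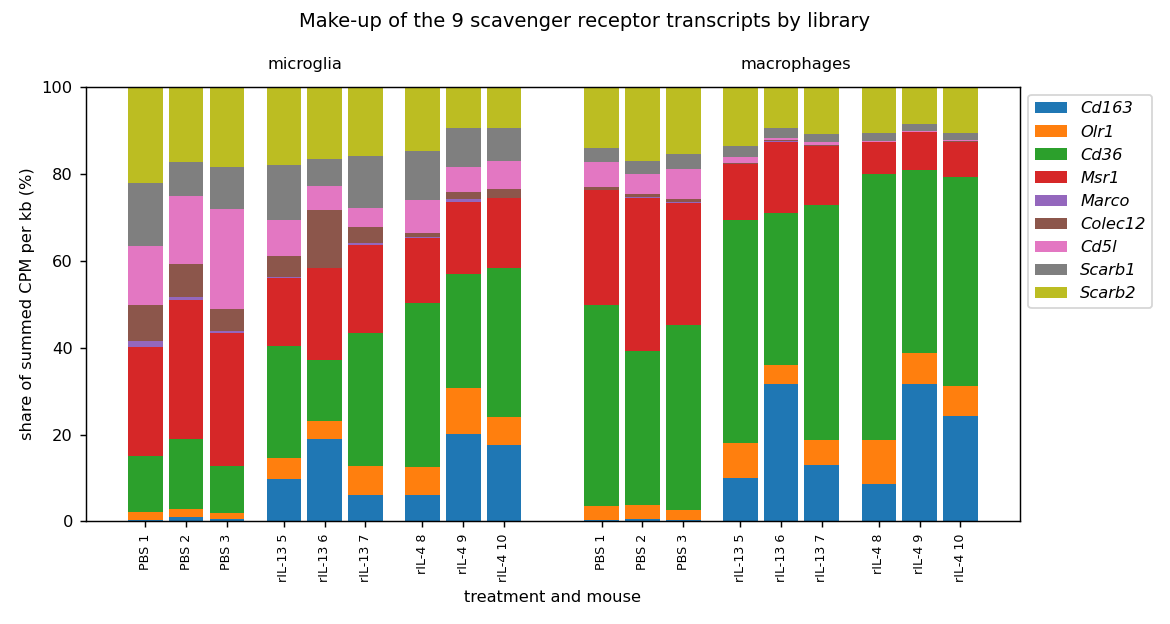
Share (%) of each gene in the summed CPM per kilobase of the 9 scavenger receptor genes, 1 stacked bar per library, grouped by cell type, treatment and mouse. Cd163 is at most 1.01% in every PBS library and between 6.08% and 31.6% in the 12 libraries of cytokine-treated mice.

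In macrophages, rIL-4 changed 6 of the 9 genes: Cd163 and Olr1 rose, and Cd5l, Colec12, Msr1 and Scarb1 fell. Over all genes tested in this comparison 14.0% were called. The values of rIL-4 and PBS libraries did not overlap for any of the 9, as was the case for 34.7% of all genes tested. rIL-13 changed 4 of the 9 in macrophages, Cd163 and Olr1 upwards and Cd5l and Msr1 downwards, where 4.19% of all genes were called, and 6 of the 9 did not overlap with PBS, against 24.5% of all genes. The median log2 fold change of the 9 genes was -0.47 with rIL-4 and -0.28 with rIL-13, beside 0.02 and 0.00 over all genes.

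In microglia, rIL-4 changed 3 of the 9 genes, where 2.22% of all genes were called: Cd163 and Olr1 rose and Scarb2 fell. The values of 7 of the 9 did not overlap with PBS, against 25.9% of all genes. With rIL-13 edgeR called 0 of the 9 in microglia, where it called 0.366% of all genes. At an unadjusted p under 0.05 there were 5 of the 9, against 7.76% of all genes. DESeq2 called 3 of the 9 (Cd163, Olr1 and Cd5l) and 404 of 15898 genes in all, and 6 of the 9 did not overlap with PBS, against 16.0% of all genes. The median log2 fold change of the 9 genes in microglia was -0.64 with rIL-4 and -0.11 with rIL-13, beside -0.06 and 0.00 over all genes. The same PBS libraries serve both cytokine comparisons of a cell type, so the 2 sets of fold changes are not independent.

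**Figure D2:**
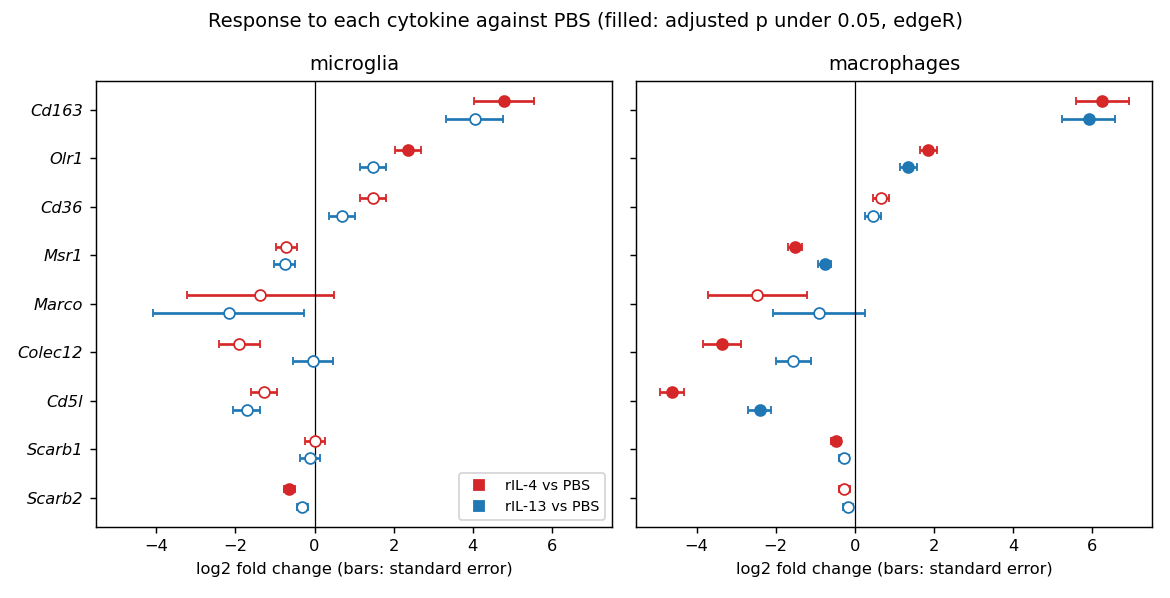
Log2 fold change of each of the 9 genes with rIL-13 (blue) and rIL-4 (red) against PBS, in microglia (left) and macrophages (right), with bars for the SE of the edgeR fit and filled symbols for adjusted p under 0.05. Cd163 lies farthest to the right in both panels, and Cd5l with rIL-4 in macrophages lies farthest to the left, at -4.62.

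Cd163, the receptor that takes up haemoglobin bound to haptoglobin, showed the largest rise of the 9. In macrophages its level was 4.98, 8.36 and 4.20 CPM in PBS mice 1, 2 and 3, 169.9, 613 and 268 CPM in rIL-13 mice 5, 6 and 7, and 165, 699.9 and 479.9 CPM in rIL-4 mice 8, 9 and 10. Every cytokine library was above every PBS library, and within each cytokine group the mice differed several-fold. On the log2 scale the change was 6.26 ± 0.67 with rIL-4 (adjusted p = 0.000336) and 5.91 ± 0.66 with rIL-13 (adjusted p = 0.00142). In microglia Cd163 stood at 1.83, 7.66 and 3.61 CPM with PBS, 58.0, 118 and 40.4 CPM with rIL-13 and 37.1, 153 and 167 CPM with rIL-4. Again the PBS libraries were lowest, without overlap. The rise with rIL-4 was 4.79 ± 0.75 on the log2 scale (adjusted p = 0.0152), and the call was lost without PBS mouse 1 (adjusted p = 0.0741) or 3 (adjusted p = 0.0872). With rIL-13 the log2 fold change was 4.05 ± 0.73 but the adjusted p, 0.0696, missed the threshold, which DESeq2 passed (adjusted p = 5.91e-08).

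Cd163 is also a marker of border-associated macrophages, so the other markers of that list were read beside it. In macrophages with rIL-4, Mrc1, Clec10a and Cbr2 rose by 4.84 ± 0.25, 2.92 ± 0.31 and 1.88 ± 0.25 on the log2 scale, while F13a1 and Folr2 fell by 2.37 ± 0.26 and 0.80 ± 0.21. Counting Cd163, 4 of the 8 markers rose, 2 fell, and Lyve1 and Pf4, at -2.47 ± 1.06 and -1.29 ± 0.47, were not called. With rIL-13 in macrophages 4 of the 8 rose and 1, F13a1, fell. In microglia with rIL-4, Mrc1 and Cbr2 rose beside Cd163, by 4.30 ± 0.58 and 1.53 ± 0.20 (adjusted p = 0.00735 and 0.00683), and the other 5 were not called. With rIL-13 in microglia 1 of the 8, Cbr2, rose. The 8 markers, Cd163 among them, summed to 283 to 584 CPM in PBS microglia, 612 to 963 CPM with rIL-13 and 620.0 to 1177 CPM with rIL-4, and none was at 0 in any of the 9 libraries. The part of border-associated macrophages in the Cd163 values was not tested. Over the 9 macrophage libraries, the 3 genes with the log2 CPM pattern most like that of Cd163 were Ccl24, a chemokine for eosinophils, Srgn and Fcgr2b, with Pearson r of 0.996, 0.994 and 0.991; these points share the treatment groups, and the value describes likeness only.

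Olr1, the receptor of oxidised low-density lipoprotein, rose in both cell types. Its level in macrophages was 32.3, 31.9 and 24.6 CPM with PBS, 90.8, 55.5 and 78.7 CPM with rIL-13 and 128, 103 and 90.8 CPM with rIL-4. The cytokine groups lay above PBS throughout and met each other at 90.8 CPM. This was a log2 fold change of 1.86 ± 0.22 with rIL-4 (adjusted p = 0.000499) and 1.35 ± 0.21 with rIL-13 (adjusted p = 0.00726). Microglia held less, 6.63, 9.23 and 7.52 CPM with PBS, 19.4, 17.0 and 28.5 CPM with rIL-13 and 26.1, 52.6 and 39.1 CPM with rIL-4. Here too no cytokine library fell to the PBS range. The rise with rIL-4 was 2.36 ± 0.33 (adjusted p = 0.00868; 0.0629 without PBS mouse 1 and 0.0608 without PBS mouse 3), and with rIL-13 the log2 fold change of 1.48 ± 0.32 was not called by edgeR (adjusted p = 0.146) and was called by DESeq2 (adjusted p = 0.00128). Over the 9 macrophage libraries Gm8113, Sept9 and Stxbp3 had patterns most like that of Olr1 (Pearson r 0.982, 0.979 and 0.978).

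Cd163, Olr1 and Cd36 were all lower in microglia than in macrophages, and the markers of macrophages were read beside them in the microglia libraries. The 10 monocyte and macrophage markers summed to 3026 to 3853 CPM with PBS, 6693 to 10335 CPM with rIL-13 and 16970 to 26859 CPM with rIL-4, and none was at 0 in any of the 9 libraries. With rIL-4, 3 of the 10 rose: Chil3, itself induced by IL-4, by 7.12 ± 0.67 on the log2 scale, F10 by 3.35 ± 0.62 and Ms4a7 by 1.47 ± 0.30. Chil3 alone was 50.4 to 251 CPM with PBS, 4626 to 6818 CPM with rIL-13 and 11482 to 20630 CPM with rIL-4, and with rIL-13 it was the only one of the 10 called. The other 7 were not called with rIL-4, among them Ccr2, a defining receptor of monocytes, at 1.33 ± 0.50, Lyz2 at 0.61 ± 0.40, Fn1 at 0.50 ± 0.25, Plac8 at -0.66 ± 1.33 and Vcan at -1.31 ± 0.34. Endothelial cells also use Cd36 and Olr1. The 10 endothelial markers summed to 1134 to 2426 CPM in PBS microglia, 2117 to 3871 CPM with rIL-13 and 2525 to 3358 CPM with rIL-4, above PBS without overlap for rIL-4, and 0 of the 10 were called with either cytokine. The part of macrophages and endothelial cells in the microglia values of these receptors was not tested.

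Cd36, which takes up fatty acids and oxidised lipids, was not called by edgeR with either cytokine in either cell type. Its level was 480.0, 353 and 449 CPM in PBS macrophages, 580.0, 445 and 735 CPM with rIL-13 and 612 to 778 CPM with rIL-4. The rIL-4 libraries lay above all PBS libraries, and the rIL-13 libraries overlapped with them. With rIL-4 the log2 fold change was 0.66 ± 0.21 (adjusted p = 0.0621), and DESeq2 called it (adjusted p = 0.0297). In microglia Cd36 stood at 48.3, 80.0 and 52.4 CPM with PBS, 101, 57.2 and 134 CPM with rIL-13 and 151, 131 and 213 CPM with rIL-4. Only the rIL-4 group was clear of PBS, by 1.48 ± 0.33 on the log2 scale (adjusted p = 0.0589 in edgeR and 0.000589 in DESeq2). Ganab, Btbd10 and Bclaf1 had macrophage patterns most like that of Cd36 (Pearson r 0.989, 0.973 and 0.971, 9 libraries).

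**Figure D3:**
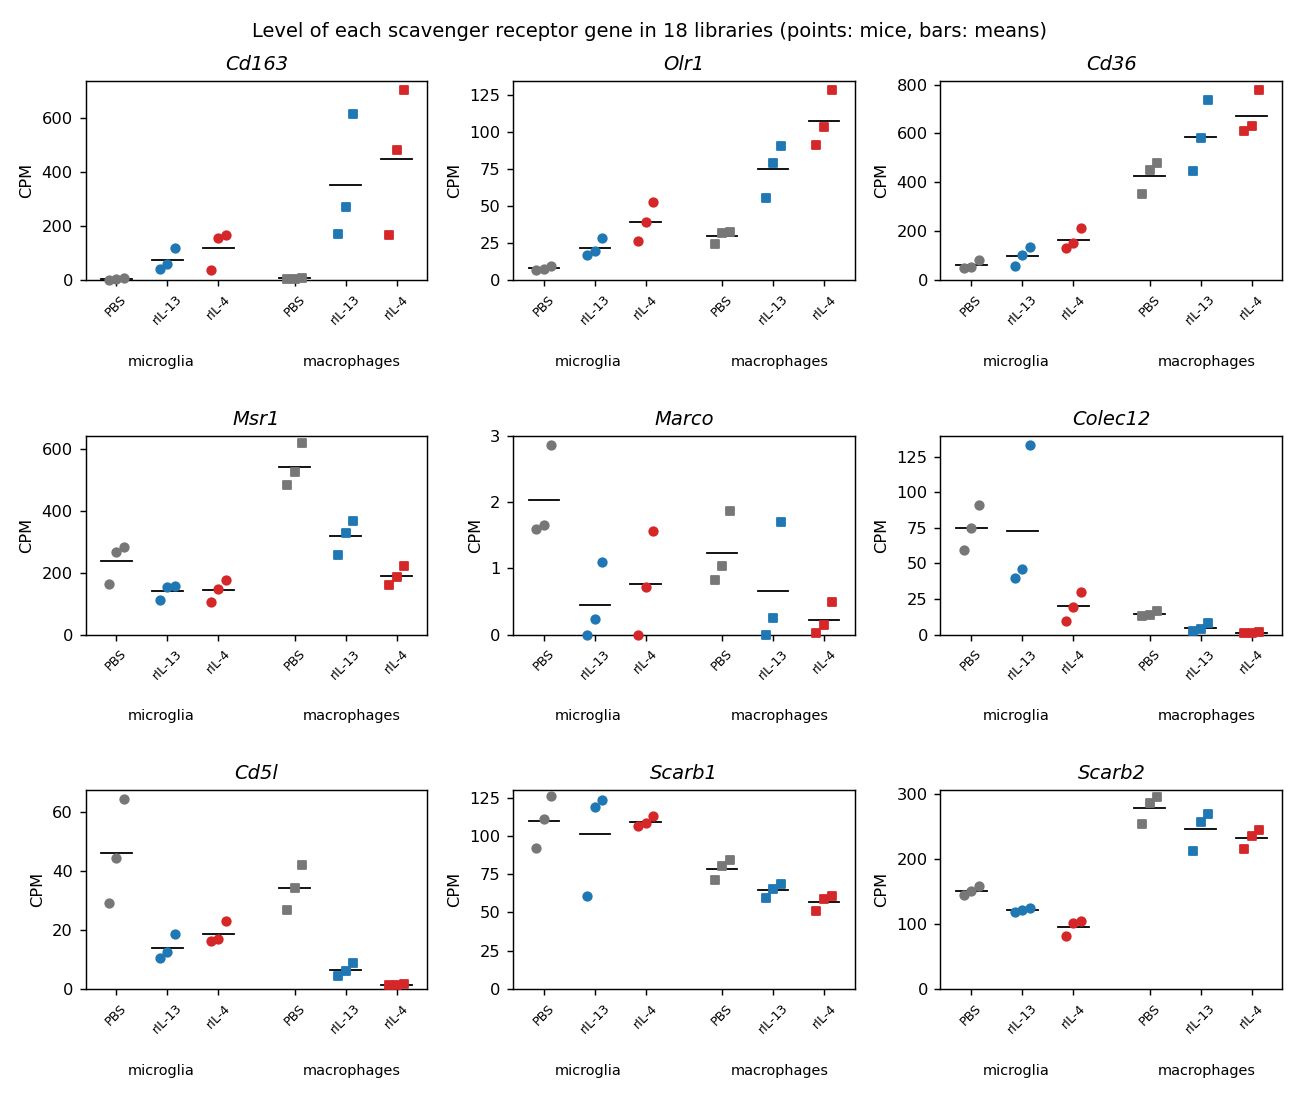
Level (CPM, linear axis from 0) of each of the 9 genes in the 18 libraries, 1 panel per gene, with circles for microglia, squares for macrophages and a bar at the mean of 3 mice. Cd163 and Olr1 are higher in all cytokine libraries than in the PBS libraries of the same cell type, and Cd5l is lower in all of them.

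Among the class A genes, Msr1, which binds acetylated lipoproteins and debris, fell in macrophages. Its level was 483, 618 and 525 CPM with PBS, 258, 369 and 327 CPM with rIL-13 and 162, 222 and 186 CPM with rIL-4. The 3 groups did not overlap. The log2 fold change was -1.51 ± 0.17 with rIL-4 (adjusted p = 0.000496) and -0.76 ± 0.17 with rIL-13 (adjusted p = 0.0374); the rIL-13 call was lost without any one of mice 1, 2, 3, 5, 7 or 10 and in the single model of 18 libraries. In microglia Msr1 stood at 165, 283 and 265 CPM with PBS, 110.2, 155 and 156 CPM with rIL-13 and 105, 148 and 176 CPM with rIL-4. The rIL-4 values overlapped with those of PBS. Neither difference was called (log2 fold changes -0.71 ± 0.26 and -0.75 ± 0.26 with rIL-4 and rIL-13, adjusted p = 0.215 and 0.513). Over the 9 macrophage libraries Zfp281, Clec4d and F13a1 had patterns most like that of Msr1 (Pearson r 0.991, 0.987 and 0.986).

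Colec12, a class A receptor with a C-type lectin domain, was low in macrophages and higher in the microglia libraries. In macrophages it fell from 13.6, 12.9 and 16.4 CPM with PBS to 1.05, 1.02 and 2.10 CPM with rIL-4, with 8.39, 3.98 and 2.20 CPM with rIL-13 in between. The rIL-4 counts were only 39 to 82 per library. With rIL-4 the log2 fold change was -3.37 ± 0.48 (adjusted p = 0.00154), and with rIL-13 it was -1.56 ± 0.44 (adjusted p = 0.0848 in edgeR and 0.00590 in DESeq2). Without rIL-13 mouse 5, which held the highest of the 3 values, edgeR called the rIL-13 difference at -2.21 (adjusted p = 0.0193). Marker sums of other cells moved in both directions in these libraries. The fibroblast and pericyte markers summed to 5.14 to 8.79 CPM with PBS, 4.28 to 9.87 CPM with rIL-13 and 0.307 to 1.41 CPM with rIL-4, and the microglia markers to 2972 to 4470 CPM, 1208 to 2482 CPM and 486 to 875 CPM in the same order, so that both were lowest with rIL-4. Of the 10 endothelial markers 4 fell with rIL-4 (Tek, Kdr, Ly6c1 and Cldn5) and 2 rose, Pecam1 by 4.70 ± 0.34 and Flt1 by 3.34 ± 0.41 on the log2 scale, while their sum was highest with rIL-4, at 238 to 439 CPM against 52.7 to 66.7 CPM with PBS. Of the 6 astrocyte markers tested 1 rose, Gja1 by 5.23 ± 0.95, and 1 fell, Slc1a3 by 3.61 ± 0.92, and the sum was 23.1 to 29.2 CPM with PBS and 66.0 to 511 CPM with rIL-4. Their part in the Colec12 values was not tested.

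In microglia Colec12 stood at 75.1, 91.2 and 59.3 CPM with PBS, 46.1, 133 and 39.4 CPM with rIL-13 and 9.56, 19.6 and 30.2 CPM with rIL-4. All rIL-4 libraries were below PBS, and rIL-13 mouse 6 was the highest of the 9. The log2 fold change with rIL-4 was -1.91 ± 0.52 (adjusted p = 0.111 in edgeR and 0.00587 in DESeq2), and with rIL-13 it was -0.04 ± 0.50, or -0.80 without mouse 6. The summed fibroblast and pericyte markers moved beside it: 2599 to 3726 CPM with PBS, 1305 to 8174 CPM with rIL-13, where mouse 6 was again highest, and 232 to 1603 CPM with rIL-4. Within the rIL-4 group the order was opposite, since mouse 8 had the lowest Colec12 and the highest marker sum, and mouse 10 the highest Colec12 and the lowest marker sum. The sort gate was set on CD45, CD11b and F4/80, and the study's methods state a high purity of the sorted cells. The marker sums come from these same sorted libraries. The part of other cells in the Colec12 values was not tested. Its 3 most similar genes over the 9 microglia libraries were Mtmr3, Prrx1 and P3h1 (Pearson r 0.961, 0.956 and 0.951), of which P3h1 hydroxylates collagen.

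Marco, a bacterial receptor of class A, was near the limit of detection. Its counts ran from 0 to 117 per library, with 0 counts in rIL-13 mouse 5 macrophages and in rIL-13 mouse 6 and rIL-4 mouse 10 microglia. It stood at 0.820, 1.86 and 1.03 CPM in PBS macrophages against 0.143, 0.496 and 0.0256 CPM with rIL-4, which do not overlap. The log2 fold change of -2.47 ± 1.25 was not called (adjusted p = 0.229). In PBS microglia it was 2.86, 1.66 and 1.59 CPM, and in cytokine-treated microglia at most 1.57 CPM, and neither comparison was called (adjusted p = 0.833 with rIL-4 and 1 with rIL-13).

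Cd5l, a secreted protein of macrophages that restrains apoptosis and inhibits fatty acid synthesis, showed the largest fall. In macrophages it stood at 34.2, 26.8 and 42.0 CPM with PBS, 8.66, 4.51 and 6.14 CPM with rIL-13 and 1.19, 1.20 and 1.79 CPM with rIL-4. The 3 groups formed 3 separate steps, and the rIL-4 counts were only 46 to 70 per library. The log2 fold change was -4.62 ± 0.31 with rIL-4 (adjusted p = 2.44e-05) and -2.41 ± 0.28 with rIL-13 (adjusted p = 0.00156). Cd5l was the only one of the 9 called between the cytokines in macrophages, at -2.21 ± 0.29 for rIL-4 against rIL-13 (adjusted p = 0.0201), where 0.250% of all genes were called. The call was lost without any one of mice 5, 8, 9 or 10 (adjusted p = 0.0588 to 0.0851), and also with only the 6 libraries compared.

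In microglia Cd5l stood at 29.1, 44.6 and 64.3 CPM with PBS, 18.6, 12.6 and 10.5 CPM with rIL-13 and 17.1, 16.2 and 23.0 CPM with rIL-4. The PBS libraries were highest without overlap, and the cytokine groups overlapped with each other. Neither difference from PBS was called by edgeR (-1.27 ± 0.34 with rIL-4, adjusted p = 0.0993, and -1.72 ± 0.34 with rIL-13, adjusted p = 0.104), and both were called by DESeq2 (adjusted p = 0.00726 and 0.000186). The rIL-4 response of Cd5l differed between the cell types. The difference, microglia minus macrophages, was 3.33 ± 0.47 on the log2 scale (adjusted p = 0.00332), 0.992% of all genes were called in this test, and Cd5l was the only one of the 9 genes called. For rIL-13 it was 0.69 ± 0.45 (adjusted p = 1); edgeR called 0 of the 9 genes there and 0.0242% of all genes, with 0 of the 9 at an unadjusted p under 0.05, against 5.83% of all genes, and 0 called by DESeq2, which called 183 of 16601 genes.

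Markers of microglia moved with Cd5l in the macrophage libraries. The 10 markers summed to 2972 to 4470 CPM with PBS, 1208 to 2482 CPM with rIL-13 and 486 to 875 CPM with rIL-4, and 10 of 10 fell with rIL-4 and 4 of 10 with rIL-13. For rIL-4 against rIL-13, Sall1, Sparc and Cx3cr1 were called at -3.17 ± 0.53, -2.92 ± 0.37 and -2.65 ± 0.27. Tmem119 and Fcrls were called at -2.05 ± 0.23 and -2.04 ± 0.32, and the other markers had negative log2 fold changes that were not called. None of the 10 was at 0 in any macrophage library, and Tmem119, one of the defining genes, was 123 to 207 CPM with PBS and 11.7 to 14.5 CPM with rIL-4. In the microglia libraries the sum was 8051 to 14121 CPM with PBS, 4288 to 8913 CPM with rIL-13 and 3467 to 5595 CPM with rIL-4. In the test of the difference in the rIL-4 response between the cell types, 3 of the 10 markers were called with the same sign as Cd5l: Sparc at 3.32 ± 0.45, Cx3cr1 at 2.49 ± 0.53 and Fcrls at 2.46 ± 0.51 (adjusted p = 0.00220, 0.0374 and 0.0315). The part of these cells in the Cd5l values was not tested. Spp1, the gene of osteopontin, was among the 3 genes most like Cd5l over the 9 microglia libraries (Pearson r 0.915), beside Chst12 and Gcnt1 (0.917 and 0.907).

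**Figure D4:**
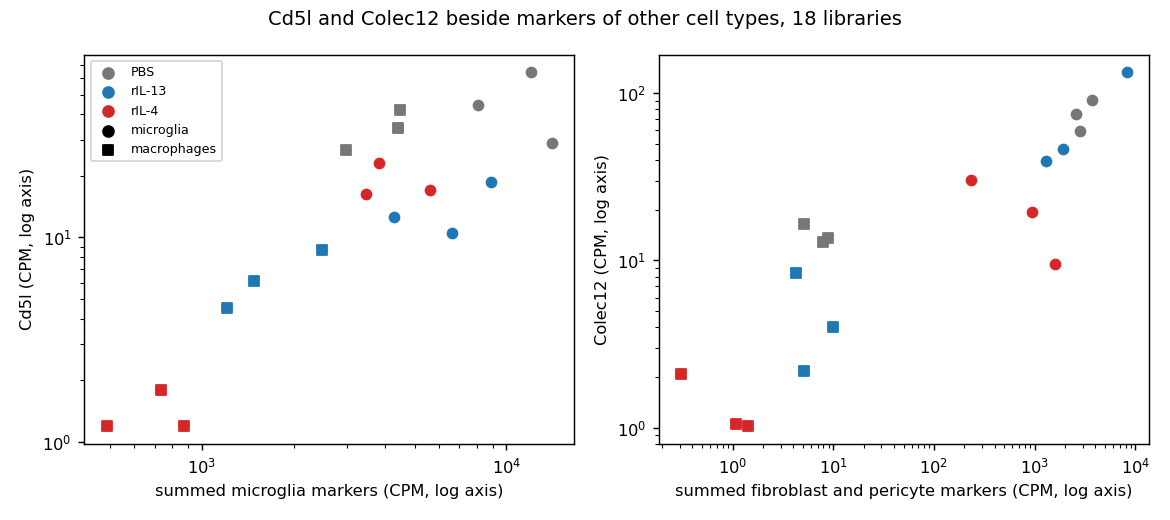
Cd5l against the summed CPM of 10 microglia markers (left) and Colec12 against the summed CPM of 10 fibroblast and pericyte markers (right) in the 18 libraries, both axes logarithmic, with circles for microglia and squares for macrophages. The rIL-4 macrophages lie lowest on both axes in both panels, and among rIL-4 microglia Colec12 is lowest where the fibroblast markers are highest.

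Scarb1, the receptor that exchanges cholesterol with high-density lipoprotein, was 80.3, 71.0 and 84.3 CPM in PBS macrophages, 68.7, 65.4 and 59.6 CPM with rIL-13 and 58.6, 60.7 and 50.8 CPM with rIL-4. Both cytokine groups lay below PBS. The fall with rIL-4 was called, at -0.47 ± 0.13 (adjusted p = 0.0373), but not without any one of mice 1, 2, 3, 5, 7, 8 or 10, nor with all genes with any count or in the single model of 18 libraries, and with rIL-13 the difference was -0.28 ± 0.13 (adjusted p = 0.303). In microglia Scarb1 was 126, 92.0 and 111 CPM with PBS, 119, 60.6 and 123 CPM with rIL-13 and 106, 109 and 113 CPM with rIL-4. These overlapped, and the log2 fold changes of 0.02 ± 0.26 and -0.11 ± 0.26 with rIL-4 and rIL-13 were not called (adjusted p = 0.994 and 1). Over the 9 microglia libraries Mast3, Slc40a1, the iron exporter, and Gdf3 were most like Scarb1 (Pearson r 0.980, 0.977 and 0.975).

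Scarb2, the lysosomal membrane protein that carries glucocerebrosidase to the lysosome, was 145, 151 and 159 CPM in PBS microglia, 124, 119 and 122 CPM with rIL-13 and 104, 82.4 and 102 CPM with rIL-4. The 3 groups did not overlap. The fall with rIL-4 was -0.64 ± 0.13 (adjusted p = 0.0462), and it lost its call without any one of the 9 mice, with all genes with any count and with only the 6 libraries compared; the rIL-13 difference was -0.31 ± 0.13 (adjusted p = 0.639). In macrophages it stood at 255, 296 and 287 CPM with PBS, 269.7, 212 and 257 CPM with rIL-13 and 236, 216 and 244 CPM with rIL-4, and neither difference was called (adjusted p = 0.226 with rIL-4 and 0.568 with rIL-13). Over the 9 macrophage libraries the patterns most like that of Scarb2 were those of Npc2 and Ctsh, both lysosomal, and Degs1 (Pearson r 0.972, 0.964 and 0.967).

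In microglia, edgeR called 0 of the 9 genes when rIL-4 was set against rIL-13, and 0.0385% of all genes. At an unadjusted p under 0.05 there were 4 of the 9, against 11.4% of all genes. DESeq2 called Colec12 alone of the 9, at -1.88 (adjusted p = 0.0131), and 743 of 15524 genes in all. In macrophages 8 of the 9 were not called between the cytokines, among them Cd163 at 0.35 ± 0.53 and Olr1 at 0.51 ± 0.21 (adjusted p = 0.876 and 0.401). DESeq2 and the fit with all genes with any count also called Msr1 and Colec12, lower with rIL-4 by 0.75 and 1.81 on the log2 scale in both.

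In all 9 mice Cd36, Msr1, Cd163, Scarb2 and Olr1 were lower in microglia than in macrophages of the same mouse, and Colec12 was higher. With PBS 6 of the 9 genes were called between microglia and macrophages, where 40.9% of all genes were called. Cd36 was lower in microglia by 2.86 ± 0.23 on the log2 scale (adjusted p = 3.07e-05), Olr1 by 1.96 ± 0.21, Msr1 by 1.22 ± 0.20 and Scarb2 by 0.91 ± 0.11. The genes of the sort gate were also called lower in the microglia libraries: Ptprc at -1.33 ± 0.16, Adgre1 at -0.89 ± 0.14 and Itgam at -0.71 ± 0.18. Colec12 was higher in microglia by 2.36 ± 0.20 (adjusted p = 3.99e-05) and Scarb1 by 0.45 ± 0.15, a call (adjusted p = 0.0410) lost without any one of the 3 mice. Fibroblast and pericyte markers were higher in these microglia libraries too, by 5.70 ± 0.36 (Pdgfra) to 10.1 ± 0.45 (Dcn). The part of other cells in the Colec12 differences between cell types, with PBS or a cytokine, was not tested. Cd163 and Cd5l were not called with PBS, at -0.45 ± 0.53 and 0.39 ± 0.29.

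With rIL-13, 6 of the 9 genes differed between the cell types, against 26.7% of all genes: Colec12 was higher in microglia, and Cd36, Msr1, Cd163, Scarb2 and Olr1 were lower. Without mouse 7 only 3 of these calls were made. With rIL-4, 6 of the 9 again differed, against 23.4% of all genes, with Cd5l, Colec12 and Scarb1 higher and Cd36, Scarb2 and Olr1 lower in microglia. The calls of Scarb1 and Olr1 were lost without mouse 10 (adjusted p = 0.0572 and 0.0545). Cd5l in microglia was 12.8 to 14.3 times its level in macrophages of the same rIL-4 mouse, and 0.850 to 1.66 times with PBS. Cd163 was lower in microglia in all 9 mice, at 0.369 to 0.916 times the macrophage level with PBS, 0.150 to 0.341 times with rIL-13 and 0.219 to 0.348 times with rIL-4. For Cd163 the log2 difference with rIL-13 was -2.25 ± 0.57 (adjusted p = 0.0227; 0.0584 without mouse 5 and 0.137 without mouse 7), and with rIL-4 it was -1.88 ± 0.65 and missed the threshold (adjusted p = 0.0796), which it passed with the mouse as a block, at -1.93 (adjusted p = 0.00153). The responses of Cd163 to the cytokines were not shown to differ between the cell types (difference -1.50 ± 0.94 with rIL-4 and -1.86 ± 0.94 with rIL-13, adjusted p = 0.596 and 0.907).

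**Figure D5:**
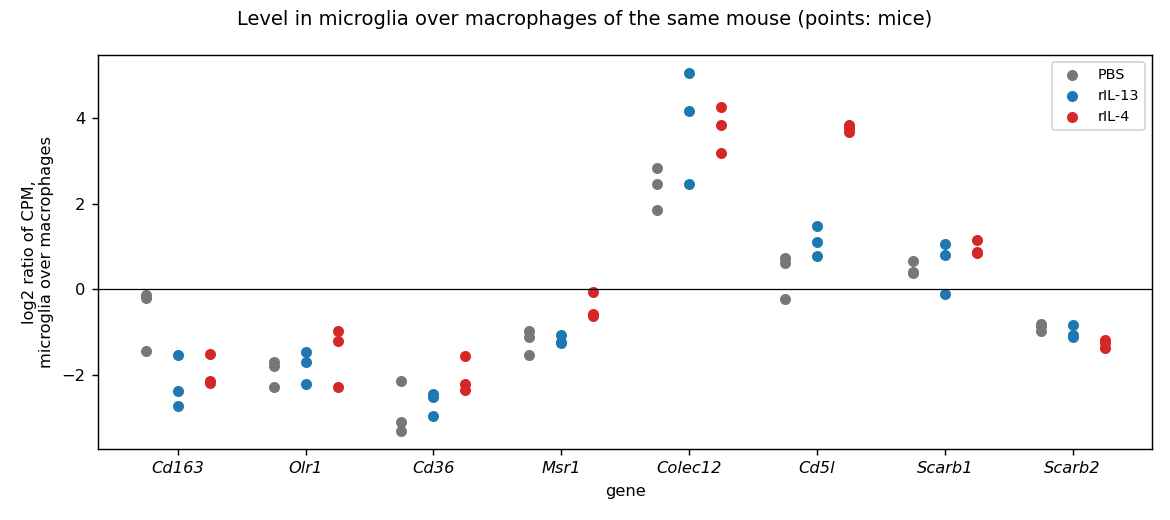
Log2 ratio of the CPM in microglia to that in macrophages of the same mouse, for 8 of the 9 genes (Marco, with 0 counts in 3 libraries, is left out), with 3 mice per treatment. The ratios of Cd5l with rIL-4 lie apart from those with PBS and rIL-13, and Cd36, Msr1, Scarb2, Olr1 and Cd163 lie below 0 in all 9 mice.

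Other scavenger receptors gave a background for these genes. Of 15 listed, 9 were tested in macrophages with rIL-4: Mrc1, the mannose receptor, and Clec7a, the beta-glucan receptor dectin, rose by 4.84 ± 0.25 and 2.86 ± 0.18 on the log2 scale, and Stab1 and Cxcl16 fell by 1.83 ± 0.22 and 1.46 ± 0.31. With rIL-13, Mrc1 and Clec7a rose in macrophages, by 4.56 ± 0.25 and 2.46 ± 0.17, and Stab1 was not called at -0.85 ± 0.21. In microglia 14 were tested, of which Mrc1 and Clec7a rose with rIL-4 (4.30 ± 0.58 and 2.63 ± 0.14) and Clec7a alone with rIL-13 (1.86 ± 0.14). The median log2 fold change of this list was -0.33 in macrophages and -0.03 in microglia with rIL-4.

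Of 11 known regulators of scavenger receptor genes, Pparg and Klf4 rose by 1.67 ± 0.30 and 1.55 ± 0.23 in macrophages with rIL-4, and Nfe2l2, the factor of the oxidative stress response, fell by 0.54 ± 0.16. Stat6 and Spi1, the gene of PU.1, stood at 0.13 ± 0.14 and -0.14 ± 0.18 there and were not called, and the median of the list was -0.14 in rIL-4 macrophages and 0.18 in rIL-4 microglia. Of 14 genes that handle the ligands and cargo, Apoe, Lpl, Hmox1 and Plin2 fell with rIL-4 in macrophages, Apoe by 1.86 ± 0.46, Hmox1 by 1.14 ± 0.19 and Plin2 by 0.56 ± 0.15. Hmox1 degrades haem, and Lpl, a lipase, also fell with rIL-13 there, by 1.25 ± 0.21. In microglia Fabp5, a carrier of fatty acids, was the only one of the 14 called, with a rise of 1.40 ± 0.23 with rIL-4.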

How the data were processed

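SMART-seq2 libraries, which carry no strand information and no molecular identifiers, were sequenced in pairs of 76 bases; per the study's methods reads were aligned with STAR 2.5.3a to GRCm38 and summed per gene with RSEM 1.3.0. The authors deposited the resulting expected counts as whole numbers, not normalized, and these were used as they stand. Rows that name no gene numbered 0, and per-sample columns left out numbered 0. edgeR 4.0.16 in R 4.3.3 was run with TMM and filterByExpr, on the 9 libraries of a cell type for treatments, on 6 libraries for cell types and on 18 libraries for the difference in response; DESeq2 1.42.0 was an alternative, as were other scaling, filters and fits that leave out a mouse. SE is the fold change over the square root of F. Gene models of GENCODE M21 gave exon lengths, and the 9 genes share no exonic base with another gene. The procedure was also run on simulated counts, drawn independently per library from the spread that edgeR estimated in these data. Such counts cannot show how it handles PCR copies, RNA of other cells or libraries that share a mouse. Depth bounds counting error only, and PCR copies are not independent molecules.

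The genes and lists were chosen with earlier results of these data known. Named were all 9 genes, up to 3 called genes per list and comparison with the largest change, list genes that a count rests on, and for each of the 8 genes with a mean of at least 1 CPM the 3 genes with the highest Pearson correlation of log2 CPM (prior count 2). Microglia and macrophages with 1 number come from 1 mouse, as the labels say, and the deviations of the 9 pairs from their group means correlated by 0.0177 to 0.0935. Each mouse is 1 replicate, and cells of 1 mouse were sorted from the same tissue.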

Additional observations from a re-analysis of the deposited data

Results flagged for a closer look

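Cd5l, the secreted scavenger receptor cysteine-rich protein, was singled out because its response to rIL-4 differed between the cell types in a direct test. The fall in macrophages exceeded that in microglia by 3.33 on the log2 scale (edgeR, adjusted p = 0.00332), and over all alternatives run its adjusted p was 1.63e-09 to 0.0277, without any one of the 9 mice included. The rIL-4 macrophage libraries held only 46 to 70 counts of Cd5l. The microglia markers in the macrophage libraries fell with it, and their part was not tested.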

How the results depend on the processing

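Over all alternatives 1293 fold changes of the 9 genes were recomputed: 1181 kept their direction and their side of the threshold, 47 lost a call, 43 gained one, and 22 changed sign, 0 of them called values. The share of all genes called also differed between settings, as given above for DESeq2, and is not given for each here. The counts below therefore show which calls held, not how the 9 genes compare with all genes. In the rIL-4 against PBS comparison of microglia 3 genes were called, against 6 with DESeq2, 6 when 1 model held all 18 libraries, and 0 to 4 when a mouse was left out (0 without mouse 1 or 3). For rIL-13 against PBS in microglia the count was 0, against 1 with all genes with any count, 2 with at least 10 counts in every library, 3 with DESeq2, 3 in the single model and 0 to 1 when a mouse was left out. Between the cytokines it was 0 in microglia (1 with DESeq2), and in macrophages 1, against 3 with all genes with any count, 3 with DESeq2, 0 with only the 6 libraries compared and 0 to 1 when a mouse was left out. Between cell types with rIL-13 it was 6, and 3 to 7 when a mouse was left out. The cause was not tested. With the mouse as replicate block the counts were 6, 6 and 7 between cell types with PBS, rIL-13 and rIL-4 and 1 and 0 for the difference in response, and no call changed but that of Cd163 with rIL-4. The block reversed Marco between cell types with rIL-13 (0.99) and in the difference in the rIL-13 response (0.27), and the single model reversed Scarb1 with rIL-4 in microglia (-0.0077). None of the sign changes concerned a called value. Leaving out a mouse gave log2 ranges across 0 in microglia for Scarb1 with rIL-4 (-0.10 to 0.12) and rIL-13 (-0.29 to 0.15), Colec12 with rIL-13 (-0.80 to 0.25), and, between the cytokines, Msr1 (-0.13 to 0.22), Marco (-0.26 to 2.70) and Scarb1 (-0.13 to 0.30). Between the cytokines in macrophages the ranges were -2.88 to 0.72 for Marco and -0.13 to 1.01 for Cd163, and between cell types with rIL-13 -2.82 to 2.33 for Marco. For the difference in the rIL-13 response they were -0.12 to 0.12 for Msr1, -3.56 to 1.64 for Marco, -0.064 to 0.43 for Scarb1 and -0.082 to 0.36 for Olr1. With 3 mice per group and low input, depth limits Marco most, at 0 to 117 counts per library.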
